A study of Homo sapiens with 4 samples.

Results

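The 43 genes described here encode proteins of DNA repair and of the checkpoint that halts the cell cycle when DNA is damaged. They were chosen by name from these pathways, by a rule that used no measured value, though earlier results of these data were known. Of the 43, 17 act in homologous recombination, 9 in the Fanconi pathway, 3 in mismatch repair, 7 in end joining or single-strand break repair and 7 in the checkpoint. All 43 symbols were found in both deposited tables, among 18965 symbols that the tables share and 19732 in the A549 table. The series measured messenger RNA in A549 and H1299, human lung cancer cell lines, each as a control and as cells with a knockdown of RBM4, an RNA-binding protein that takes part in splicing and translation. There was 1 library for each of the 4 groups, and the series title names senescence as the subject. The labels give the same growth medium text for all groups (RPMI-1640 or F12K, with fetal bovine serum). The labels name neither the knockdown construct nor any clone, and they give no batch. Only the A549 pair was compared. For the 2 H1299 samples there are 3 value columns whose names match no label, so H1299 levels were not analysed here.

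Homologous recombination mends broken chromosomes by copying the sister strand: the broken end is trimmed, BRCA1 and its partners bring BRCA2, and strand exchange with the sister follows. The Fanconi pathway unhooks DNA cross-links, mismatch repair corrects copying errors, and end joining ligates broken ends without a template. The kinases ATM and ATR sense damage and signal through CHEK2 and CHEK1. Many genes of recombination, and fewer of end joining, are known to be transcribed most in cells that are copying their DNA. A549 carries the wild-type gene of p53, the main transcriptional effector of the checkpoint.

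Values are FPKM (fragments scaled by transcript length and library size), summed over the protein-coding transcripts of a gene. A difference is the log2 ratio of the knockdown to the control level after 1 FPKM was added to each, which understates changes of low genes. Negative means lower in the knockdown library. Sequencing depth is unknown and each value is a single measurement, so differences have no replicate error and none was tested. Which column is the knockdown was read from column names alone. In that column RBM4 stood at 51.5% of its control level (59.4 and 30.6 FPKM). The mitochondrial genome took 18.6% of all FPKM in control and 21.7% in knockdown cells. The keratins KRT8 and KRT18, epithelial filaments, were abundant but lower in knockdown cells (1646 and 888 FPKM, and 1853 and 912 FPKM), whereas KRT19 was higher (29.6 and 64.9 FPKM) and the epithelial marker EPCAM was low and level (2.74 and 2.75 FPKM). Marker lists of other cell types were higher in knockdown cells. The 7 fibroblast genes summed to 8.67 and 36.3 FPKM, with COL1A1 and THY1 the 2 above 1 FPKM and DCN listed at 0. The immune genes summed to 9.62 and 30.9 FPKM, with CD14 and CD68 above 1 FPKM and CD3E at 0. The 4 endothelial genes summed to 3.04 and 18.8 FPKM, nearly all from ESAM, with VWF at 0. The part of these markers in the results was not tested.

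Most of the repair and checkpoint genes were lower in knockdown cells, by modest amounts. All 43 reached 1 FPKM in at least 1 library. A difference below 0 was seen for 36 of the 43 (83.7%), against 53.4% of the 12230 genes at that level. The median was -0.41, against -0.04 for all genes. A 2-fold limit separated few of them: 1 gene, EXO1, was lower by at least 2-fold (2.33%, near the 2.25% of all genes), and none was higher, against 4.96% of all genes. At a 1.5-fold limit, chosen after the values were seen, 15 genes were lower (34.9%, against 9.83% of all genes) and none was higher (against 12.7%). These 15 were 10 recombination genes, FANCG, EXO1, MSH6, LIG3 and XRCC1. No checkpoint gene was among them.

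The 1.5-fold count depends on how the libraries are scaled. It was 9 after both were brought to the same total (20.9%, against 6.73% of all genes), and 4 when genes of the mitochondrial genome were also left out (9.30%, against 5.66%). The median of all genes moved with it, from -0.04 to 0.06 and 0.11. The distance between the median of these genes and that of all genes lay between -0.35 and -0.41 over 7 other settings of pseudocount, filter, scaling and transcript summing. Scaling and centring shift all genes nearly alike, so by construction they hardly change this distance. Proliferation and replication genes moved the same way: all 31 on a list that includes MKI67, the MCM helicase and E2F1 were lower, with a median of -0.78 and a summed level of 2039 FPKM in control and 1198 FPKM in knockdown cells. Their part in the lower repair genes was not tested. In bulk RNA, fewer dividing cells and less of these transcripts per dividing cell cannot be told apart.

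**Figure D1:**
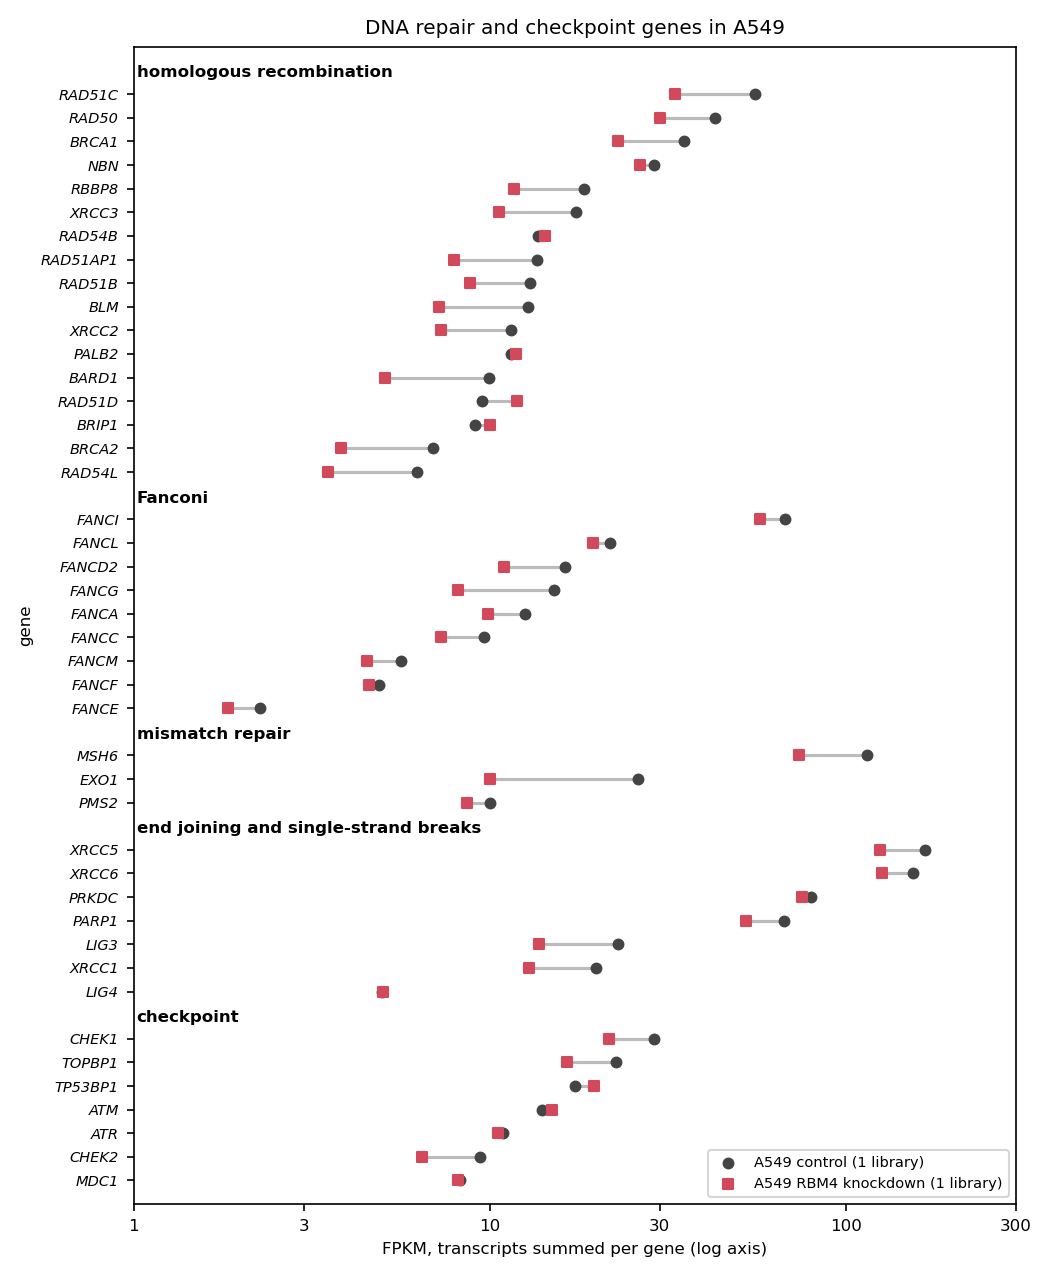
Level of each of the 43 genes in A549 on a log axis (FPKM, transcripts summed per gene), by pathway and ordered by control level; a circle is the control library, a square the RBM4 knockdown library, with 1 library each and no error bar. Squares lie to the left of circles for 36 genes, with the longest gap at EXO1 (26.1 and 10.0 FPKM), and nearly coincide for LIG4, MDC1 and ATR.

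In homologous recombination, BRCA1, BRCA2, BARD1, BLM and most strand-exchange genes were lower, while 4 genes were not. Of the 17, 13 were below 0 (76.5%, against 53.4% of all genes) and 10 were lower by 1.5-fold (58.8%, against 9.83%), with a median of -0.59. The median was -0.49 at the same total and -0.44 without mitochondrial genes. In the latter setting only BARD1 (-0.70) and BLM (-0.61) of the group were still lower by 1.5-fold. BARD1, which forms the ubiquitin ligase with BRCA1, had the lowest difference of the group: 9.93 FPKM in control and 5.09 FPKM in knockdown cells (-0.84). Only 3.78% of all genes had a lower one. BARD1 is ENSG00000138376, on chromosome 2, 214725646 to 214809711, minus strand (hg38).

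BRCA1 itself (ENSG00000012048, chromosome 17, 43044295 to 43170245, minus strand) stood at 35.1 FPKM in control and 22.9 FPKM in knockdown cells (-0.59). BRCA2 (ENSG00000139618, chromosome 13, 32315474 to 32400266, plus strand), which acts after BRCA1 to start strand exchange, was less abundant, at 6.92 and 3.82 FPKM (-0.72). Knockdown cells thus held 65.3% of the control level of BRCA1 and 55.2% of that of BRCA2. PALB2, the protein that joins BRCA1 to BRCA2, was not lower, at 11.5 and 11.8 FPKM (0.04). This depended on its minor transcripts: the highest transcript of PALB2 alone gave -0.41.

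Among the factors that assist strand exchange, BLM, a helicase that dissolves joined molecules, was at 12.8 and 7.18 FPKM (-0.75). RAD51AP1, which stimulates strand pairing, was at 13.6 and 7.94 FPKM (-0.71), and the motor protein gene RAD54L at 6.23 and 3.51 FPKM (-0.68). All of these stood between 56.1% and 58.4% of control. RAD54B, a relative of RAD54L, differed from it in sign, at 13.7 and 14.3 FPKM (0.06). RAD54B shares exons with FSBP, and the sum includes the model FSBP-203, at 0 in control and 1.38 FPKM in knockdown cells. With its highest transcript alone RAD54B was at -0.18.

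RAD51B, RAD51C, RAD51D, XRCC2 and XRCC3 form small complexes that assist strand exchange. RAD51C, which is in more than 1 of them, had the highest gene sum in recombination, at 55.6 and 33.1 FPKM (-0.73). That rank rests on models under 1000 bases: in longer models RAD51C was at 12.9 FPKM in control, below RAD50 at 42.75 FPKM. XRCC3, which pairs with RAD51C, was at 17.5 and 10.6 FPKM (-0.67), and XRCC2 at 11.5 and 7.31 FPKM (-0.59). RAD51B was at 12.9 and 8.80 FPKM (-0.51). RAD51D, which binds XRCC2, was the highest gene of the group, at 9.51 and 11.9 FPKM (0.30). On the gene sum 4 of these 5 genes were lower and RAD51D was not. This depended on the transcripts counted: XRCC3 was at -0.25 with its highest transcript alone, and RAD51B was at 0.48 without models under 1000 bases. RAD51D shares exons with the read-through gene RAD51L3-RFFL and is uncertain. The same limit holds for some of the lower genes: BRCA1, RAD50, RBBP8 and XRCC1 also share exons with other genes on the same strand.

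The end-trimming factors split in a similar way. RBBP8, which encodes the nuclease cofactor CtIP, was at 18.4 and 11.7 FPKM (-0.61), and the bridging ATPase gene RAD50 at 42.75 and 29.996 FPKM (-0.50). Its complex partner NBN was at 28.9 and 26.4 FPKM (-0.13), a difference that was above 0 under 2 settings. BRIP1, the helicase that binds BRCA1, was slightly above control, at 9.07 and 10.03 FPKM (0.13).

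The 9 Fanconi genes were all below 0 (against 53.4% of all genes), but by less, with a median of -0.27. Of them, 1 gene was lower by 1.5-fold (11.1%, near the 9.83% of all genes). FANCG, a scaffold of the core complex, was at 15.1 and 8.15 FPKM (-0.82; ENSG00000221829, chromosome 9, 35073835 to 35080016, minus strand). FANCD2, which is ubiquitinated at cross-links, was at 16.2 and 11.0 FPKM (-0.52), whereas its partner FANCI, the most abundant gene of the group, was at 67.2 and 57.4 FPKM (-0.22). FANCD2 and FANCI act as a pair, and their levels were at 67.7% and 85.4% of control.

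On the gene sum the other core complex genes differed less. FANCC (9.60 and 7.28 FPKM, -0.36) and FANCA (12.5 and 9.88 FPKM, -0.32) came next. Without models under 1000 bases, FANCC was at -0.81, below FANCG at -0.72, and FANCA was at -0.54. FANCM, the translocase that anchors the core complex, was at 5.63 and 4.51 FPKM (-0.27), and FANCE, the least abundant of all 43, at 2.27 and 1.84 FPKM (-0.20). The ubiquitin ligase gene FANCL (21.7 and 19.4 FPKM, -0.15) and FANCF (4.89 and 4.59 FPKM, -0.08) were nearest to control. FANCF, FANCL and FANCM were above 0 under 1 or 2 settings, and the median of the group was -0.17 at the same total and -0.13 without mitochondrial genes.

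Mismatch repair held the largest difference. EXO1, the nuclease that removes the mismatched strand and also extends trimmed DNA ends, was at 26.1 FPKM in control and 10.0 FPKM in knockdown cells, or 38.4% of control (-1.30). A lower difference was seen in 0.9% of all genes. EXO1 is ENSG00000174371, on chromosome 1, 241847967 to 241895148, plus strand. With the highest transcript of each library in place of the sum it was -0.87, short of 2-fold, but these were different models. EXO1-201, the highest in control, gave -1.68, and EXO1-202, the highest in knockdown cells, gave -0.40. MSH6, a subunit of the mismatch sensor, was abundant, at 114.8 and 73.8 FPKM (-0.63), and PMS2, the nicking subunit, was at 10.00 and 8.61 FPKM (-0.19). PMS2 has related pseudogenes, so its level is uncertain.

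In end joining, the abundant Ku genes were moderately lower and the kinase was near control. XRCC5 and XRCC6, which encode the 2 Ku subunits that cap broken ends, were at 167 and 124 FPKM (-0.42) and at 155 and 126 FPKM (-0.29). PRKDC, the kinase that Ku recruits, was at 79.8 and 75.4 FPKM (-0.08), and the ligase gene LIG4 at 4.997 and 5.012 FPKM (0.004). Neither was firmly placed: PRKDC was above 0 under 2 scaling settings, and the highest transcript of LIG4 alone gave 0.52.

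In single-strand break repair the ligase and its scaffold were lower. LIG3, the ligase, was at 22.9 and 13.7 FPKM (-0.70), and XRCC1, the scaffold that holds it, at 19.9 and 12.9 FPKM (-0.59). These 2 proteins work as a complex and stood at 59.8% and 64.7% of control. PARP1, the sensor of nicks, was at 67.1 and 52.4 FPKM (-0.35). The group as a whole had 6 of 7 genes below 0 (85.7%, against 53.4% of all genes) and a median of -0.35, which was -0.19 without mitochondrial genes.

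In the checkpoint, 3 genes were lower on the gene sum and 4 were near or above control. The damage sensors were near control: ATM was at 14.05 and 14.9 FPKM (0.08; ENSG00000149311, chromosome 11, 108222484 to 108369102, plus strand) and ATR at 10.9 and 10.5 FPKM (-0.04). Their effector kinases were lower, CHEK1 at 28.99 and 21.6 FPKM (-0.41) and CHEK2 at 9.38 and 6.46 FPKM (-0.48). TOPBP1, the activator of ATR, was also lower, at 22.7 and 16.5 FPKM (-0.43). The chromatin mediators were not: MDC1 was at 8.22 and 8.16 FPKM (-0.01), and TP53BP1, which steers breaks toward end joining, at 17.4 and 19.7 FPKM (0.17). These places depended on the transcripts counted. The highest transcript alone gave -0.42 for ATM, -0.40 for MDC1 and -0.07 for CHEK1, so that ATM was then the lower of ATM and CHEK1. For CHEK2 the highest model differed between the libraries. Taking the highest of each library gave -0.94, and CHEK2-208, the highest in control, gave -1.21. In addition, ATR and MDC1 were above 0 after rescaling to the same total (0.06 and 0.09). The median of the 7 was -0.04, the same as that of all genes at 2 decimals. It was above 0 after rescaling to the same total (0.06) or without mitochondrial genes (0.11), and -0.40 with the highest transcript of each gene in each library. CHEK2 has related pseudogenes, CHEK1 shares exons with STT3A, and ATM overlaps NPAT on the other strand, so these levels are uncertain.

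**Figure D2:**
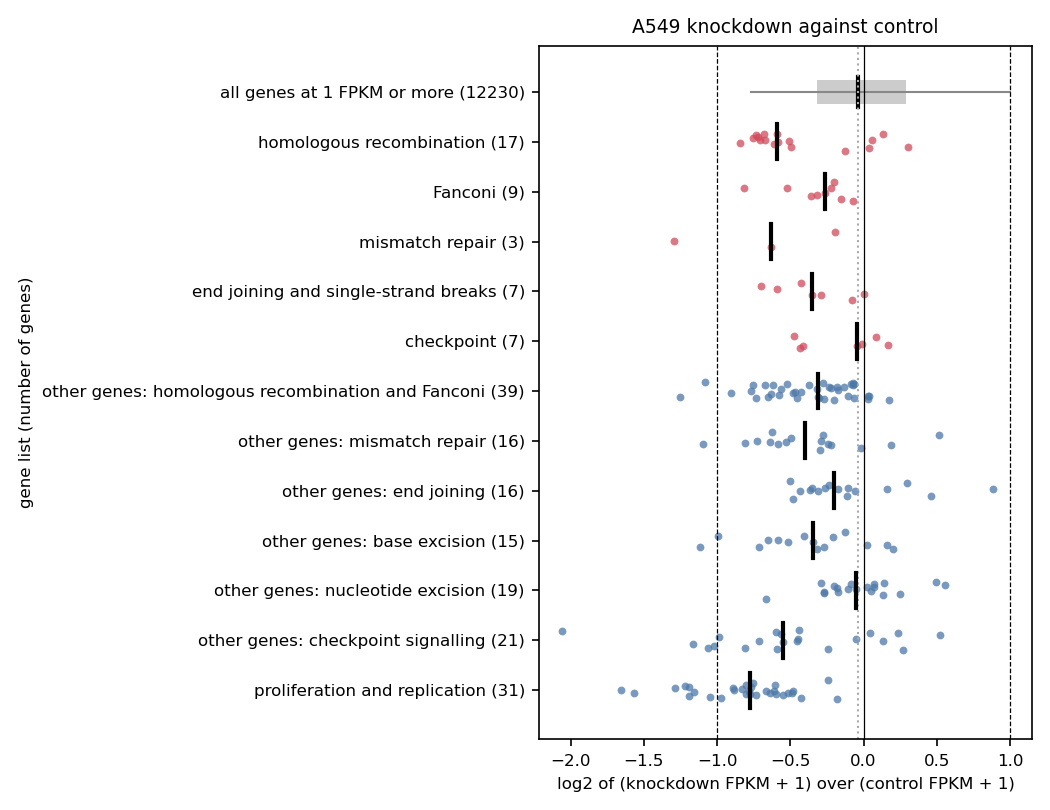
Difference of each gene (log2 ratio, knockdown over control, 1 FPKM added to each) for the 5 groups (red), other genes of the same pathways and proliferation genes (blue), with a black bar at each median; the grey box and line at the top span the middle 50% and 90% of all 12230 genes, and dashed lines mark 2-fold. Medians of the 5 groups run from -0.63 in mismatch repair to -0.04 in the checkpoint group; the proliferation genes have -0.78.

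Other repair and checkpoint genes were also mostly below 0, by amounts that differed between lists. Of 126 further repair and checkpoint genes in the table, 99 (78.6%, against 53.4% of all genes) were below 0. Lower by 1.5-fold were 30 (23.8%, against 9.83% of all genes), and 1, PARP3, was higher by 1.5-fold (against 12.7%). The median of the 126 was -0.28, against -0.04 for all genes. Other recombination and Fanconi genes had 35 of 39 below 0 and a median of -0.31, from FIGNL1, an ATPase of recombination (19.0 and 7.39 FPKM, -1.25), to the nuclease gene ERCC4 (6.31 and 7.24 FPKM, 0.17). Other mismatch repair genes had 14 of 16 below 0 and a median of -0.40, from the clamp loader gene RFC3 (27.0 and 12.1 FPKM, -1.10) to the polymerase subunit gene POLD4 (90.7 and 130 FPKM, 0.52). Several of these also serve replication.

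End joining outside the 7 genes had 12 of 16 below 0 (75%, against 53.4% of all genes) and a median of -0.20. It ran from the polymerase gene POLQ (9.17 and 6.18 FPKM, -0.50) to PARP3 (5.12 and 10.3 FPKM, 0.88). Base excision, which removes damaged bases, had 12 of 15 below 0 and a median of -0.35, from the glycosylase gene NEIL3 (19.8 and 8.59 FPKM, -1.11) to MUTYH (4.14 and 4.92 FPKM, 0.20). Nucleotide excision, which removes bulky lesions, was close to all genes, with 10 of 19 below 0 and a median of -0.05. It ran from GTF2H2 (13.99 and 8.44 FPKM, -0.67), which has near-identical copies, to GTF2H3 (20.3 and 30.2 FPKM, 0.55). Checkpoint signalling genes outside the 7 had 16 of 21 below 0, 9 (42.9%) lower by 1.5-fold and a median of -0.55. The 7 had a median of -0.04 and 0 lower by 1.5-fold. With 9.83% of all genes lower by 1.5-fold, 0 of 7 does not set them apart from all genes. The 21 include PLK1, which is also on the proliferation list. The 21 ran from the phosphatase gene CDC25B (120 and 28.0 FPKM, -2.06) to the clamp gene RAD9A (6.79 and 10.2 FPKM, 0.52).

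The gene sums hide differences between transcript models. The 43 genes had 279 listed models, of which 63 were at 0 in both libraries and 148 reached 1 FPKM in at least 1. The model with the highest level was another one in knockdown cells for 7 genes: CHEK2, FANCM, FANCC, EXO1, RAD51B, RAD51D and RAD51C. That is 17.5% of the 40 with several models, against 13.1% of 10435 such genes in the table. The leading share moved by 20 percentage points or more for 5 genes (12.5%, against 11.2%). Both shares were near the background. BRCA1 showed no such shift: its leading model, BRCA1-203, of 7207 bases, held 53.7% of the gene in each library. Levels of overlapping models are estimated jointly from shared reads, so a shift between them is less certain than a gene sum.

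In PALB2, MDC1 and CHEK2, named for large shifts of the leading share, a long model was lower while short models were higher. This was not general. In the 34 genes that list models under 1000 bases, these models together were higher in 14, lower in 16 and equal in 4. They held 15.7% of the summed level of the annotated models of the 43 genes in control and 15.8% in knockdown cells. PALB2-201, of 4003 bases, was at 9.42 and 6.83 FPKM, and PALB2-204, of 626 bases, at 1.43 and 3.24 FPKM. The leading share of PALB2 thus went from 82.1% to 57.8%. MDC1-201, of 7576 bases, was at 6.35 and 4.56 FPKM, and the MDC1 models under 1000 bases together at 1.88 and 3.61 FPKM. CHEK2-208, of 1844 bases, was at 4.45 and 1.36 FPKM, or 47.4% and 21.1% of the gene, while CHEK2-215, of 984 bases, was listed at 0 in control and at 1.24 FPKM in knockdown cells.

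In FANCM and LIG4, shares shifted between models of over 1000 bases. In FANCM the model FANCM-201, of 7111 bases, was at 2.12 and 0.65 FPKM, and FANCM-202, of 6167 bases, at 1.47 and 2.40 FPKM. In LIG4, whose total was level, LIG4-203 was at 2.67 and 4.25 FPKM or 53.4% and 84.7% of the gene. In FANCC a long model was lower and a short one higher: FANCC-201, of 4592 bases, was at 5.31 and 2.58 FPKM, and FANCC-204, of 591 bases, at 3.21 and 4.07 FPKM. In EXO1 both leading long models were lower, EXO1-201 at 9.86 and 2.40 FPKM and EXO1-202 at 6.86 and 4.96 FPKM, so the difference of the gene was carried mostly by the first and by models under 1000 bases (9.38 and 2.67 FPKM).

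**Figure D3:**
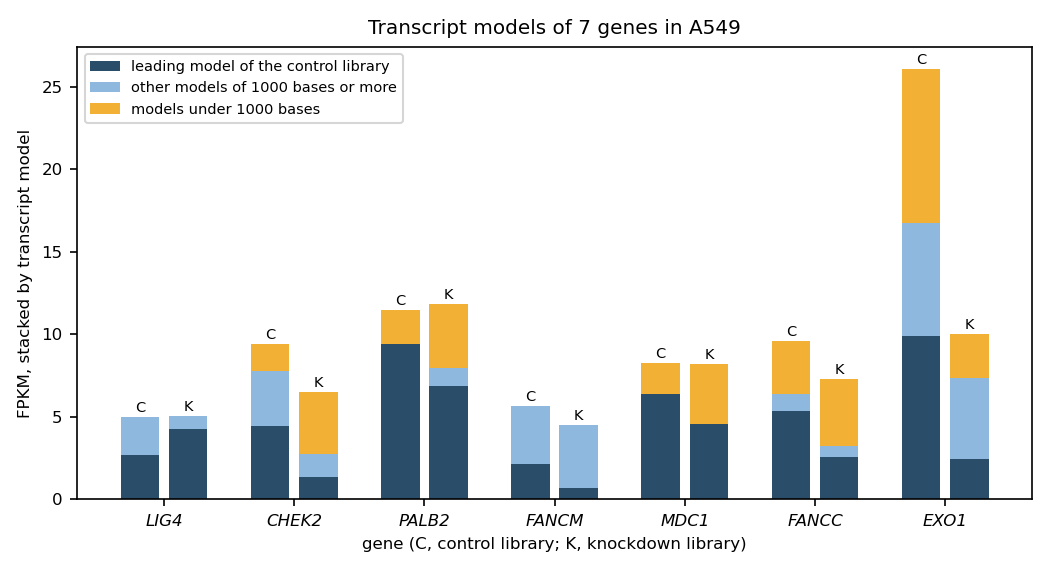
FPKM of 7 genes in the A549 control (C) and RBM4 knockdown (K) library, stacked by transcript model: the leading model of the control library, other models of 1000 bases or more, and other models under 1000 bases; 1 library per bar. The dark segment is shorter in knockdown cells for every gene shown but LIG4, and the segment of short models is taller for CHEK2, PALB2, MDC1 and FANCC.

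With models under 1000 bases left out of every gene, a setting chosen after the values were seen, 38 of the 43 genes were below 0. That is 88.4%, against 52.9% of all genes, and the median was -0.50, against -0.03 for all genes. Models not found in GENCODE release 29 were left out too. A TOPBP1 model (3.63 and 4.30 FPKM) was among these, and TOPBP1 went from -0.43 to -0.60. CHEK2 then became the second gene past 2-fold, at 7.75 and 2.74 FPKM (-1.23). PALB2 (-0.22), ATM (-0.04) and RAD54B (-0.08) moved below 0, and MDC1 was at -0.40. RAD51B moved the other way, to 0.48, since 10.5 of its 12.9 FPKM in control cells lay in models under 1000 bases. RAD51C too had most of its level in such models, 42.7 of 55.6 FPKM, and MSH6 had 39.1 of 114.8 FPKM there.

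Promoter letters were compared because E2F factors drive many replication and repair genes. In the set of RefSeq promoters used here (GRCh38.p14), 38 of the 43 genes had a window, from 250 bases before to 50 after a start site. Of these, 36 had one within 500 bases of the start of their leading control transcript. The E2F letters searched were TTTCCCGC, TTTGGCGC, TTTCGCGC, TTTGGCGG and TTTCCCGG, on both strands. They were in 8 of the 36 windows (22.2%), against 8.24% of 8565 windows chosen the same way: XRCC2, RAD50, FANCC, FANCD2, PARP1, XRCC6, ATR and TOPBP1. All 8 genes were below 0, with a median of -0.40, and 23 of the 28 others were below 0, with a median of -0.55. Among all genes the order was the other way, with a median of -0.18 with the letters and -0.04 without. CCAAT was in 47.2% of the windows (37.4% of all) and the cell cycle letters TTTGAA or TTCGAA in 11.1% (10.3% of all).

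The stretches that hold these letters upstream of the start and outside annotated exons are shown for FANCC, PARP1 and ATR, each of 60 bases on the gene's strand, 5′ to 3′. Capitals mark the letters. They read on the gene's strand in the second FANCC line and are reverse complemented in the other lines. The FANCC stretches (chr9:95317848-95317907 and chr9:95317722-95317781, minus strand) have them 172 and 46 bases before the start site, PARP1 (chr1:226408156-226408215, minus strand) 96 bases before it, and ATR (chr3:142578911-142578970, minus strand) 211 bases before it.
FANCC, first: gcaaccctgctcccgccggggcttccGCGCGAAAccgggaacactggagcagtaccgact
FANCC, second: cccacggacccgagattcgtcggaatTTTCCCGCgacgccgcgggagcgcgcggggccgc
PARP1: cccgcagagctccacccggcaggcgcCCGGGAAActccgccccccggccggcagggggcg
ATR: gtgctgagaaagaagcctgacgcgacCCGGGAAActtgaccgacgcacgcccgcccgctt
FANCC (-0.36) and PARP1 (-0.35) were further below control than ATR (-0.04).

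**Figure D4:**
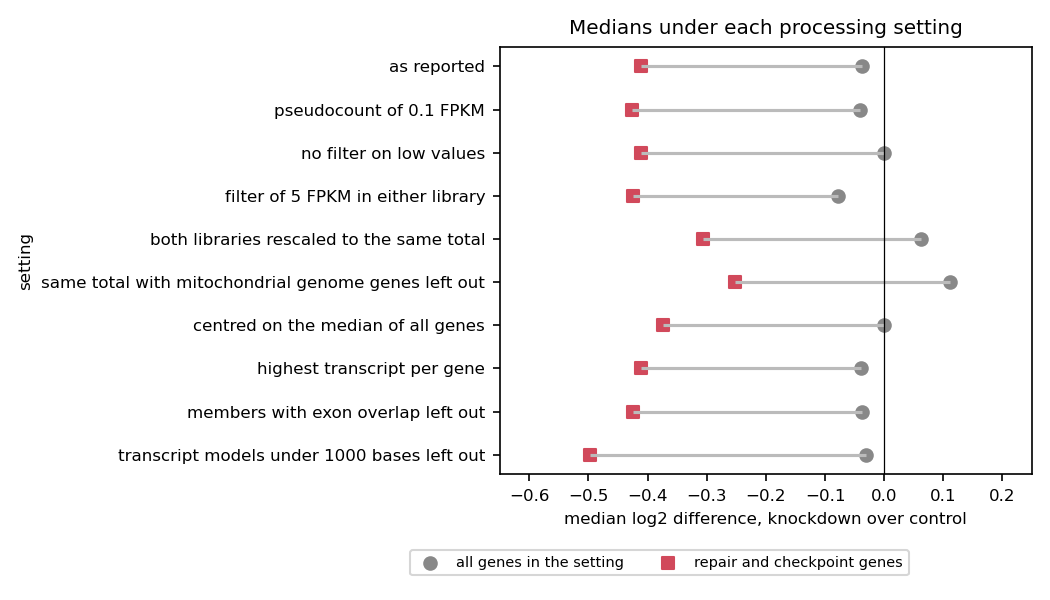
Median log2 difference of the repair and checkpoint genes (red squares) and of all genes (grey circles) under the reported setting and 9 others, with no error bars. The squares lie between -0.50 and -0.25, to the left of the circle in each setting, and both move right when libraries are rescaled.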

How the data were processed

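Messenger RNA of A549 and H1299 cells was sequenced from 1 library per group, prepared by TruSeq from Trizol-extracted RNA per the labels' protocols. CASAVA 1.8.2, TopHat, Cufflinks and build hg38 are named in the submitters' processing notes, without roles. For annotation, strand setting and read filters, the sources used here give nothing. The authors deposited FPKM per protein-coding transcript, with no counts, so depth is unknown. Another 3 value columns could not be matched to a sample and were not used.

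Transcripts were summed per symbol, and 12230 genes that reached 1 FPKM in 1 of the A549 libraries or both were kept. Differences use a pseudocount of 1 FPKM. Differences of at least 2-fold were counted with no test. Positions and model lengths came from GENCODE release 29 (hg38), which matched 99.5% of transcripts. Exons of 24 of the 43 genes are shared in part with exons of other genes, on the same strand for 7 and only on the opposite one for 17. Promoters came from RefSeq. The counting was tested on simulated data. Python 3.11.15 and pandas 2.3.3 were used. The genes, lists and rules were chosen with earlier results of these data known. Named were RBM4, 12 set genes, genes past 2-fold, the 2 lowest and 2 highest of each group, the extremes of each other list, and the 6 genes with the largest shifts of the leading transcript. The rest were named after their values were seen.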

Additional observations from a re-analysis of the deposited data

How the results depend on the processing

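There were 7 settings with another pseudocount, filter, scaling or summing of transcripts. Of the 43 genes, 29 were below 0 and 4 above 0 in all of them, and 10 changed sign in at least 1. The count below 0 ran from 30, where 39.9% of all genes were below 0, to 37, where 53.6% were. With both libraries at the same total, 9 genes were lower by 1.5-fold, the Fanconi median was -0.17 and the checkpoint median 0.0576. With mitochondrial genes also left out, 4 genes were lower by 1.5-fold, the median of all 43 was -0.25, and the Fanconi, end joining and checkpoint medians were -0.13, -0.19 and 0.11. Centred on all genes, the checkpoint median was -0.0057. With the highest transcript of each gene, taken in each library separately, 0 genes were lower by 2-fold (against 2.39% of all genes). The model compared could then differ between the libraries, as in EXO1 and CHEK2. The checkpoint median in this setting was -0.40. Of 19 genes without exon overlap, 17 were below 0 (89.5%, against 53.4% of all genes) and 8 lower by 1.5-fold (42.1%, against 9.83%). Without models under 1000 bases, 2 of the 43 were lower by 2-fold (against 1.64% of all genes) and the checkpoint median was -0.40. The cause was not tested beyond what each setting does by construction. With no replicates, no library could be left out. H1299 alternatives were not run. Unknown depth leaves the error of genes such as FANCE, near 2 FPKM, unmeasured.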

Other observations

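Among the other repair and checkpoint genes, 8 of 126 (6.35%, against 2.25% of all genes) were lower by at least 2-fold. Besides FIGNL1, RFC3, NEIL3 and CDC25B these were USP1, the protease that removes ubiquitin from FANCD2 (26.5 and 12.0 FPKM, -1.09), the fork protection gene TIMELESS (28.1 and 12.0 FPKM, -1.16), the phosphatase gene CDC25A (7.96 and 3.29 FPKM, -1.06) and the histone variant gene H2AFX (105 and 51.1 FPKM, -1.02). None of the 126 was higher by 2-fold, against 4.96% of all genes. These 4 were named after their values were seen.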
